A study of Mus musculus with 2 samples.

Results

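Cyclins, cyclin-dependent kinases (Cdk) and Cdk inhibitors were followed in 2 tumours derived from Hepa1-6 cells, an established line of mouse hepatocellular carcinoma. The members were the protein-coding genes whose symbols start with Ccn, a letter and a digit, with Cdk and a digit, or with Cdkn and a digit. They numbered 52 of the 54532 genes counted. Before injection, the cells had been given a lentivirus with GFP and puromycin resistance cassettes, which held either an IRF8 overexpression insert or no insert (vector). Both cell populations were placed in the same C57bl/6 mouse, 1 on each side, and RNA came from tumour tissue, with 1 library per group. Age and sex of the mouse, the time of growth and the number of clones were not given in the sources used here. Hepa1-6 tumour cells and the host are both mouse, so their reads cannot be told apart.

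Cyclins are short-lived proteins that bind and switch on Cdk enzymes. D-type cyclins with Cdk4 and Cdk6, and then E-type cyclins with Cdk2, drive entry into DNA synthesis by phosphorylating the retinoblastoma protein. A-type and B-type cyclins with Cdk2 and Cdk1 carry the cell through DNA synthesis and into mitosis. INK4 inhibitors block Cdk4 and Cdk6, while Cip/Kip inhibitors bind several cyclin-Cdk pairs. Another branch of the family, with T-type and L-type cyclins, Cdk9 and relatives, acts mainly on RNA polymerase II and splicing. Its kinase Cdk7 also activates other Cdk enzymes.

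Total counts were 20223649 in the vector library and 17316607 in the IRF8 library. Irf8 had 4178 counts in the first and 2578 in the second, a log2 ratio of -0.51, which goes against the label, so the libraries are named by their labels (vector-labelled and IRF8-labelled) and every direction rests on those labels. Pairs of values are given with the vector-labelled library first. The hepatoma markers Alb and Afp were abundant in both, with 74718 and 32892 counts for Alb and 51825 and 16458 for Afp. Summed over 5 markers each, the hepatocyte list was at 6889 CPM (counts scaled to library size) with the vector label and 3351 CPM with the IRF8 label, with 3 of 5 genes at least 1.5-fold lower in the second. The lower genes were Alb, Afp and Ttr, while Hnf4a and Apob had log2 ratios of 0.06 (-0.02 to 0.13) and 0.10 (0.05 to 0.15); Ttr, Hnf4a and Apob were named after their values were seen. Skeletal muscle markers were at 6.77 and 205.6 CPM with 5 of 5 higher, adipocyte markers at 2.51 and 28.9 CPM with 4 of 5 higher (Lep had 0 and 1 counts), and B cell markers at 25.7 and 115.6 CPM with 2 of 5 higher. T cell markers were at 53.4 and 45.4 CPM with 1 of 5 lower, macrophage markers at 757 and 747 CPM, fibroblast markers at 3759 and 4065 CPM and endothelial markers at 119.4 and 112.4 CPM. No gene of these last 3 lists differed by 1.5-fold with an interval that excluded 0. The part of these tissue differences in the cyclin and Cdk values below was not tested.

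Of the 52 members, 48 had at least 1 count and 47 were measured, meaning a mean of at least 1 CPM over both libraries. Ccna1, known as the A-type cyclin of male germ cells, Ccnb3, a meiotic cyclin, Ccnb1ip1, a meiotic crossover factor, and Cdk5r2, a neuronal activator of Cdk5, had 0 counts in both libraries. With 0 counts a gene may still reach 0.150 CPM with the vector label and 0.171 CPM with the IRF8 label (a floor of 3 counts in each library). Cdk15 had 1 count in each.

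Members went both ways between the tumours, and the 5 measured E-, A- and B-type cyclins all had lower levels in the tumour labelled IRF8. The median of the log2 ratios, IRF8-labelled over vector-labelled, was -0.035 over the 47 measured members and -0.0012 over all 14775 measured genes. Without regard to sign, the median size of the log2 ratio was 0.204 for members and 0.199 for all measured genes, and 0.182 and 0.139 at or above the level of the median member, 63.0 CPM. Ratios ran from -0.64 for Ccnb1 to 0.54 for Cdk18, and 46 of 47 members (97.9%) lay within 1.5-fold, beside 86.1% of all measured genes and 95.8% of genes at or above that level. Ccnb1 was the 1 member at least 1.5-fold lower with a 95% counting interval that excluded 0, against 5.56% of all measured genes. No member was that far higher, against 6.94% of all measured genes. At 2-fold, no member was called in either direction, beside 2.77% of measured genes lower and 2.59% higher. Intervals lay below 0 for 19 members and above 0 for 12, where the shares of all measured genes were 25.8% and 23.5% (3819 and 3473 genes). With scaling by total counts alone these were 16 and 15 members, beside 3159 and 4131 of 14777 measured genes. With DESeq2 factors they were 20 and 10 members, beside 4178 and 3131 of 14775 measured genes. At or above the level of the median member, 9 of 24 members lay below 0 and 9 above, beside 42.4% and 25.8% of the 3957 genes at that level.

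These intervals cover counting error in 2 libraries and not the spread between tumours, so no difference here has a replicate check and no test was made. In bulk tissue, fewer dividing cells and less RNA per cell cannot be told apart.

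**Figure D1:**
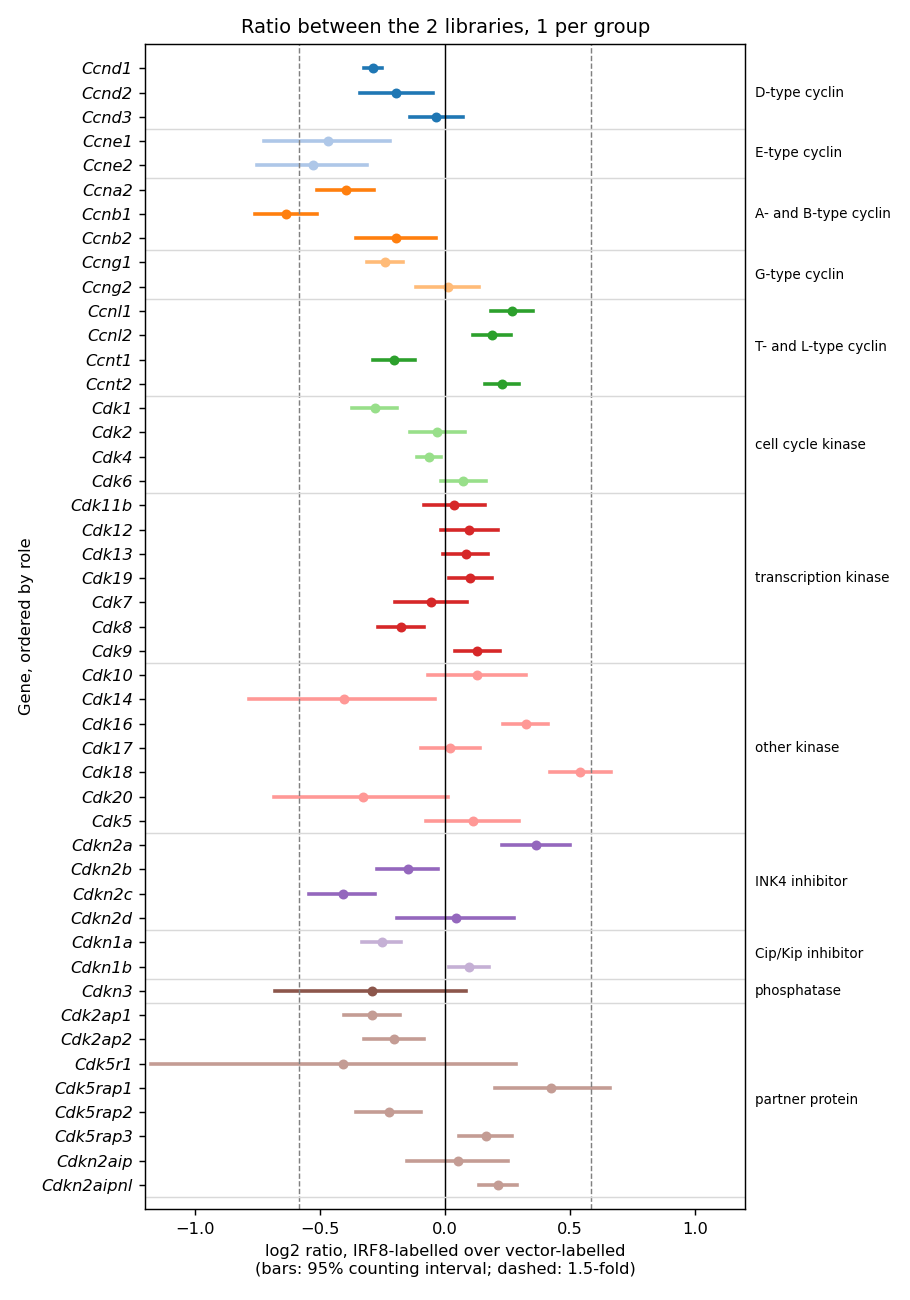
Log2 ratio of each measured member (x axis, IRF8-labelled over vector-labelled, no units) by role, with 95% counting intervals as bars and 1.5-fold as dashed lines. Ccnb1 at -0.64 lies past the lower line, and Cdk18 at 0.54 is the highest and inside the upper line.

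Cyclins of S phase, G2 and mitosis had ratios below 0. Of 7 E-, A- and B-type cyclins, 5 were measured. All 5 had intervals below 0, as had 25.8% of all measured genes, and their median ratio was -0.47. Of the 5, only Ccnb1 passed 1.5-fold. With scaling by total counts alone the interval of Ccnb2 held 0, and the other 4 lay below 0 with all 3 scalings tried.

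Ccnb1 encodes cyclin B1, the partner of Cdk1 that triggers entry into mitosis (ENSMUSG00000041431, chromosome 13, 100778650 to 100786570, minus strand, mm10). Its row held 1492 counts for the vector label and 844 for the IRF8 label. Scaled, the vector-labelled level was 74.8 CPM (71.1 to 78.7, exact Poisson interval of 95%) and the IRF8-labelled level 48.1 CPM (44.9 to 51.4), so the counting intervals of the libraries did not overlap. The level was 1.56-fold lower (1.43 to 1.70), and 5.29% of measured genes had a lower ratio. Ccnb2, whose product cyclin B2 is the Golgi-associated B-type cyclin (chromosome 9, 70407692 to 70421547, minus strand), was counted 736 and 565 times, 1.15-fold lower (1.03 to 1.28). The quotient of Ccnb1 to Ccnb2 counts went from 2.03 in the vector-labelled to 1.49 in the IRF8-labelled library, a factor of 0.737 (0.642 to 0.846). This quotient does not depend on library scaling. Per length, Ccnb1 made up 42.4% of the summed B-type FPKM (CPM per kilobase of gene length) with the vector label and 35.2% with the IRF8 label. Pseudogene rows named after these genes held few counts, 22 and 21 for Ccnb1-ps and 4 and 5 for Ccnb2-ps.

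Ccna2, the cyclin A of somatic cells that acts in both S phase and G2, had 1527 and 1019 counts and stood 1.32-fold lower (1.22 to 1.43). Its exons share 510 of 4083 bases with Exosc9 on the opposite strand (579 and 419 counts). The E-type cyclins, which with Cdk2 license the start of DNA synthesis, differed by like amounts. Ccne1 had 342 and 217 counts, 1.39-fold lower (1.17 to 1.65). Ccne2 was counted 453 and 276 times, 1.44-fold lower (1.24 to 1.68), with 609 of its 3495 exon bases shared with Ints8 on the opposite strand (1053 and 913 counts). Their quotient of counts changed by a factor of 1.04, with an interval of 0.830 to 1.31 that held 1, and each gave about an equal part of the summed E-type FPKM, 49.8% and 50.2% in the vector-labelled library.

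Cdk1, the kinase that mouse cells need for mitosis, had 2423 and 1754 counts (chromosome 10, 69335146 to 69352938, minus strand). It was 1.22-fold lower (1.14 to 1.29) and so stood between the B-type cyclins. The quotient of Ccnb1 to Cdk1 counts changed by a factor of 0.781 (0.704 to 0.867). Cdk2, the partner of cyclins E and A, had 1434 and 1235 counts with an interval that held 1 (0.947 to 1.10-fold lower). Ccna2 RNA was thus lower relative to Cdk2 RNA, with a factor of 0.775 (0.694 to 0.865) on the quotient of their counts. Cdkn3, a phosphatase that removes the activating phosphate of Cdk enzymes, had 141 and 101 counts and a log2 ratio of -0.29 (-0.68 to 0.08).

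Promoters of Ccnb1, Ccnb2 and Cdk1 are shown because these genes are textbook cases of transcription that peaks in G2 and mitosis. CCAAT boxes, bound by the factor NF-Y, and a cell cycle genes homology region (CHR, bound through the MuvB complex) are the elements known for that timing. Sequences are from RefSeq (GRCm38.p6), read along the gene's strand, with capitals for CCAAT (or its reverse complement ATTGG) and for the CHR letters TTTGAA or TTTAAA. The windows are chr13:100786487-100786611 for Ccnb1, chr9:70421545-70421654 for Ccnb2 and chr10:69352913-69353012 for Cdk1, all on the minus strand.
Ccnb1: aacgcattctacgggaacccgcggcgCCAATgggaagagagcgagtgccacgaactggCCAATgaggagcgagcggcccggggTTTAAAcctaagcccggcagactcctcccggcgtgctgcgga
Ccnb2: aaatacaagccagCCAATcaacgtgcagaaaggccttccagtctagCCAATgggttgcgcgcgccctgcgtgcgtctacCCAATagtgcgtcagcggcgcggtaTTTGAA
Cdk1: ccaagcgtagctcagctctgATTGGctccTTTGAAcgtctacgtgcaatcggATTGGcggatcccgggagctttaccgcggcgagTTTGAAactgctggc

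The 3 printed windows, whose bounds were set for each gene, share an arrangement. CCAAT boxes of Ccnb1 start at -99 and -67 from the RefSeq transcript start, 32 bases apart, with the CHR letters at -42. In Ccnb2 they start at -87, -54 and -21, 33 bases apart each, followed by TTTGAA at position 5 of the transcript, and a further TTTGAA lies at -167, outside the printed stretch. In Cdk1 the pair at -80 and -48 is again 32 bases apart, on the other strand, TTTGAA lies at -71 and -15, and a further CCAAT box lies at -208, outside it as well. In windows of 300 bases (250 before the start), at least 2 CCAAT boxes with a CHR match on either strand were present in 3.13% of all 32851 RefSeq promoters. Among the members, 44 of 52 matched the RefSeq table with 50 windows. Ccna2, Ccne2, Ccnd1 and Ccnd2 were among those without a match, so their promoters were not searched. Of the 50 windows, 13 (26%) held a CHR match and 13 (26%) at least 2 CCAAT boxes, beside 27.6% and 11.7% of all promoters. The combination was held by 6. Besides Ccnb1, Ccnb2 and Cdk1 these belonged to Cdkn3, Cdkn1b and Cdk16. Levels of these 6 genes did not share a direction, since Cdkn1b and Cdk16 were higher in the IRF8-labelled library. A match of letters is a description of the window and not evidence of binding.

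**Figure D2:**
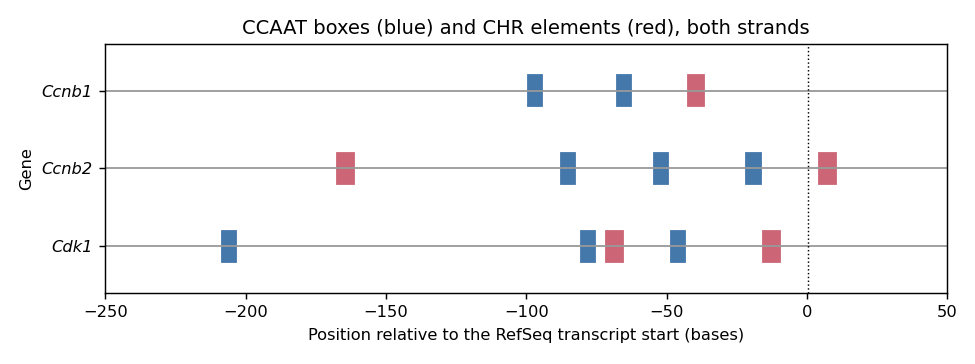
Position in bases from the RefSeq transcript start (x axis) of CCAAT boxes (blue) and CHR elements (red) in the 300-base windows of Ccnb1, Ccnb2 and Cdk1. Within 100 bases of the start, CCAAT boxes lie 32 or 33 bases apart, a further one of Cdk1 lies at -208, and a CHR element lies downstream of the last one in each window.

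The D-type cyclins, which couple growth signals to Cdk4 and Cdk6, were dominated by Ccnd1 in both tumours. Ccnd1 encodes cyclin D1, a common oncogene of liver cancer (ENSMUSG00000070348, chromosome 7, 144929931 to 144939925, minus strand). It was counted 14716 times with the vector label and 10595 times with the IRF8 label. Its level per length was 156.7 and 128.1 FPKM, the highest of all members in both libraries, and 98.1% of measured genes had a lower mean FPKM. The IRF8-labelled library was 1.22-fold lower (1.19 to 1.25). Its exons share 1100 of 4709 bases with Oraov1 on the opposite strand, whose own row held 634 and 603 counts. Ccnd1 accounted for 92.0% and 90.9% of the summed D-type FPKM.

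Ccnd2, cyclin D2, had 880 and 676 counts and stood 1.15-fold lower (1.04 to 1.27). Ccnd3, cyclin D3, known for its part in lymphocytes, had 1559 and 1339 counts. Its log2 ratio was -0.035 with an interval of -0.14 to 0.07, and turned to 0.0044 with scaling by total counts alone. Both were far below Ccnd1 per length, with Ccnd2 at 4.69 and 4.09 FPKM and Ccnd3 at 8.91 and 8.69 FPKM. The quotient of Ccnd1 to Ccnd3 counts changed by a factor of 0.838 (0.776 to 0.906).

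Cdk4 was the leading kinase of the family and differed little. It had 7673 and 6456 counts (ENSMUSG00000006728, chromosome 10, 127063534 to 127067920, plus strand), or 118.4 and 113.2 FPKM. The level was 1.05-fold lower (1.01 to 1.08), and its interval held 0 with scaling by total counts alone. Its exons share 641 of 3249 bases with Tspan31 on the opposite strand (1437 and 1266 counts). Cdk6 had 2011 and 1862 counts and a log2 ratio of 0.07 (-0.02 to 0.16), an interval that lay above 0 with scaling by total counts alone. Per length it was at 7.21 and 7.58 FPKM, so Cdk4 made up 94.3% and 93.7% of the sum of both. Ccnd1 RNA was lower relative to Cdk4 RNA, with a factor of 0.856 (0.821 to 0.892) on the quotient of their counts.

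**Figure D3:**
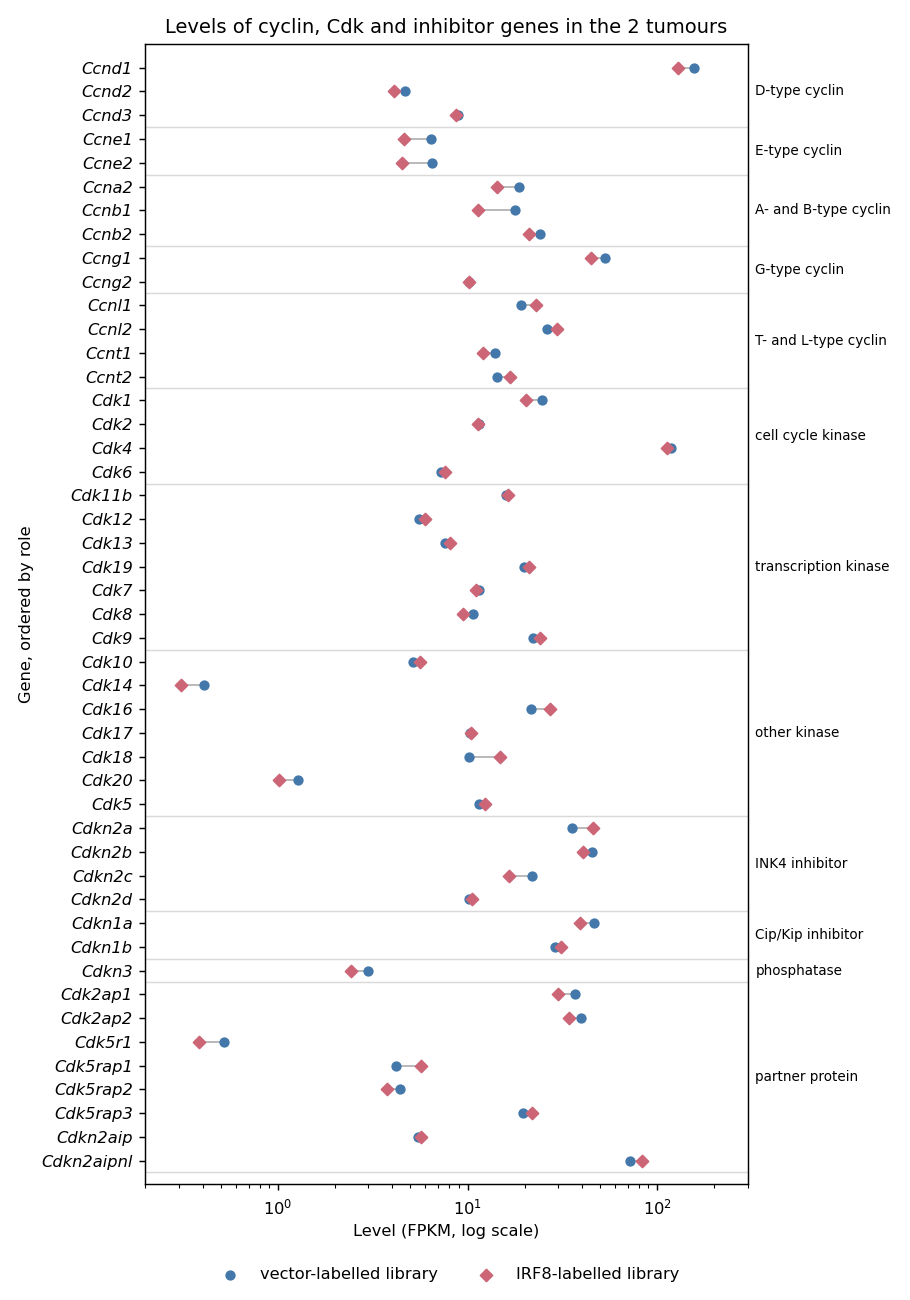
Level of each measured member in the vector-labelled (circles) and IRF8-labelled library (diamonds), in FPKM on a log scale, ordered by role. Ccnd1 and Cdk4 stand above 100 FPKM in both libraries, while Cdk14 and Cdk5r1 stay below 1 FPKM.

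The INK4 inhibitors were all transcribed in both tumours and did not share a direction. Their summed level was 112.9 FPKM with the vector label and 113.5 FPKM with the IRF8 label, beside 125.6 and 120.8 FPKM for Cdk4 and Cdk6 together. Cdkn2a, whose row counts transcripts of both p16-INK4a and the p53 activator p19-Arf (chromosome 4, 89274471 to 89294653, minus strand), had 834 and 944 counts and stood 1.29-fold higher (1.17 to 1.41). Cdkn2b, which encodes p15-INK4b and lies next to it (chromosome 4, 89306299 to 89311039, minus strand), was counted 1251 and 992 times, 1.11-fold lower (1.02 to 1.21), with an interval that held 0 with scaling by total counts alone. The quotient of Cdkn2b to Cdkn2a counts was 1.5 with the vector label and 1.05 with the IRF8 label, a change by a factor of 0.701 (0.618 to 0.794). Neighbouring genes of 1 locus thus stood in different proportion in the 2 libraries, with an interval that covers counting error only.

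Cdkn2c, encoding p18-INK4c, had 1174 and 777 counts and stood 1.33-fold lower (1.21 to 1.46), close to the value of Ccna2. Cdkn2d, encoding p19-INK4d, had 320 and 290 counts and a log2 ratio of 0.04 (-0.19 to 0.28). The share of Cdkn2a in the summed INK4 FPKM was 31.6% and 40.4%, and that of Cdkn2c 19.4% and 14.5%.

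Among the Cip/Kip inhibitors, Cdkn1a and Cdkn1b also parted. Cdkn1a encodes p21, the main p53 target that halts the cycle (chromosome 17, 29090976 to 29100727, plus strand). It had 3296 and 2431 counts and stood 1.19-fold lower (1.13 to 1.26). Cdkn1b, encoding p27, whose loss is common in tumours mostly at the protein level, had 2641 and 2485 counts and stood 1.07-fold higher (1.01 to 1.13), an interval that held 0 with DESeq2 scaling. The quotient of Cdkn1a to Cdkn1b counts changed by a factor of 0.784 (0.727 to 0.846). Ccng1, an atypical cyclin and p53 target that recruits a phosphatase to Mdm2, had 3709 and 2763 counts and stood 1.18-fold lower (1.12 to 1.24), alongside Cdkn1a. Ccng2, its relative linked to cell cycle exit, had 1105 and 979 counts and a log2 ratio of 0.0094 (-0.12 to 0.13), with its sign reversed by DESeq2 scaling (-0.013).

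**Figure D4:**
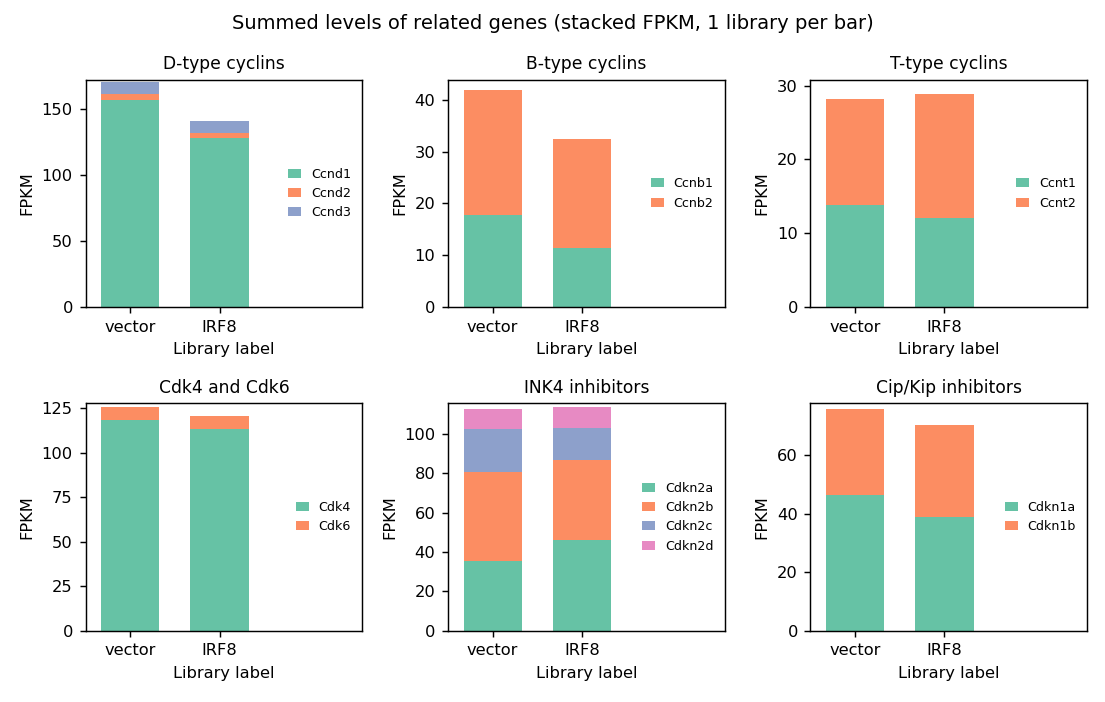
Stacked levels in FPKM (y axis, from 0) of related members in the vector-labelled library and IRF8-labelled library, 1 library per bar. Ccnd1 and Cdk4 make up over 90% of their families in both, and the INK4 sum is 112.9 and 113.5 FPKM with a larger part from Cdkn2a in the IRF8-labelled library.

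Members that act on transcription and splicing did not all share the direction of the E-, A- and B-type cyclins. Of 4 T- and L-type cyclins, 3 were higher in the IRF8-labelled library and 1 was lower, each with an interval off 0 under all 3 scalings. Intervals lay above 0 for 23.5% of all measured genes and below 0 for 25.8%. Ccnl1 (2283 and 2417 counts) was 1.20-fold higher (1.14 to 1.27) and Ccnl2 (2747 and 2752 counts) 1.14-fold higher (1.08 to 1.20). Both are splicing cyclins that pair with Cdk11. Cyclins T1 and T2 are alternative partners of Cdk9 in P-TEFb, which releases paused RNA polymerase II. Ccnt1 had 2538 and 1938 counts, 1.15-fold lower (1.09 to 1.22). Ccnt2 had 3522 and 3630 counts, 1.17-fold higher (1.12 to 1.23). The quotient of Ccnt1 to Ccnt2 counts changed by a factor of 0.741 (0.687 to 0.799), while their summed level was 28.2 and 28.8 FPKM.

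The 7 transcription kinases had a median log2 ratio of 0.08 and a range of -0.18 to 0.13. Of their intervals, 2 lay above 0, 1 lay below and 4 held 0. Over all measured genes, 23.5% lay above and 25.8% below. Cdk9 had 2028 and 1952 counts and stood 1.09-fold higher (1.03 to 1.16). The paralogs Cdk8 and Cdk19, kinases of the Mediator complex, differed in direction. Cdk8 had 2105 and 1639 counts, 1.13-fold lower (1.06 to 1.21), and Cdk19 had 2303 and 2173 counts, 1.07-fold higher (1.01 to 1.14), an interval that held 0 with DESeq2 scaling. Their quotient changed by a factor of 0.825 (0.756 to 0.900), and their summed level was 30.5 and 30.7 FPKM. Cdk7, the kinase that activates other Cdk enzymes and is part of TFIIH, had 851 and 720 counts with an interval that held 0. So did Cdk11b (1187 and 1072 counts), and so did Cdk12 (1301 and 1225) and Cdk13 (2038 and 1899), the partners of cyclin K in elongation. With scaling by total counts alone the intervals of Cdk12 and Cdk13 lay above 0.

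Among the remaining kinases, Cdk18 had the highest ratio of all members. Cdk18, a PCTAIRE kinase (ENSMUSG00000026437, chromosome 1, 132112237 to 132139684, minus strand), was counted 971 times with the vector label and 1243 times with the IRF8 label. It was 1.45-fold higher (1.34 to 1.58), and 91.1% of measured genes had a lower ratio. Its relative Cdk16 (1898 and 2088 counts) was 1.25-fold higher (1.17 to 1.33), and the third PCTAIRE kinase, Cdk17 (1248 and 1114 counts), had a log2 ratio of 0.02 (-0.10 to 0.14). Cdk14, which pairs with cyclin Y in Wnt signalling, was scarce with 154 and 102 counts and was 1.33-fold lower (1.03 to 1.72). Cdk5, best known from neurons (497 and 472 counts), Cdk10, the partner of cyclin M (440 and 423), and Cdk20, a kinase linked to cilia (172 and 120), had intervals that held 0, and that of Cdk20 lay below 0 with DESeq2 scaling.

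The rule also took in 10 genes whose products bind to or are named after a member and are not cyclins, kinases or inhibitors. Of these, 8 were measured, with a median log2 ratio of -0.08. Intervals lay below 0 for 3 and above 0 for 3, beside 25.8% and 23.5% of all measured genes. Cdk2ap1, a Cdk2-binding protein of the NuRD complex, had 1529 and 1098 counts (1.23-fold lower, 1.13 to 1.33), and its relative Cdk2ap2 had 1296 and 990 (1.15-fold lower, 1.06 to 1.25). The centrosome protein gene Cdk5rap2 had 1140 and 858 counts (1.17-fold lower, 1.07 to 1.28). Cdk5rap1, a modifier of mitochondrial transfer RNA, had 288 and 341 counts (1.35-fold higher, 1.15 to 1.58). Cdk5rap3, a part of the UFM1 ligase complex, had 1488 and 1465 (1.12-fold higher, 1.04 to 1.20). Cdkn2aipnl had 2823 and 2878 counts (1.16-fold higher, 1.10 to 1.22). Cdkn2aip, which binds p19-Arf (429 and 391 counts), and Cdk5r1, the p35 activator of Cdk5 (43 and 28 counts), had intervals that held 0.

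Other genes of the cell cycle, taken from 6 lists, placed the members in context. For comparison, 25.8% of all measured genes had intervals below 0 and 23.5% above. Among genes at or above 63.0 CPM these shares were 42.4% and 25.8%. All 12 proliferation markers had lower levels with the IRF8 label, with intervals below 0 under all 3 scalings and a median of -0.33. Rrm2, a subunit of the enzyme that makes deoxynucleotides, had 1129 and 648 counts and stood 1.53-fold lower (1.39 to 1.69), the 1 marker past 1.5-fold, a call that was lost with scaling by total counts alone. Mcm5 of the replicative helicase had 1297 and 804 counts (1.42-fold lower, 1.30 to 1.55), Top2a 8913 and 5957 (1.32-fold lower, 1.27 to 1.36) and the chromosomal passenger gene Birc5 1169 and 799 (1.29-fold lower, 1.18 to 1.41). The median of these 12 markers lay between Ccna2 at -0.40 and Cdk1 at -0.28.

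Of 12 mitotic entry genes, 8 had intervals below 0 and 1 above, beside 25.8% and 23.5% of all measured genes. The median ratio of the 12 was -0.36. Mybl2, which with MuvB activates mitotic genes, had 638 and 328 counts and stood 1.71-fold lower (1.5 to 1.96). The kinase gene Aurka had 960 and 586 counts (1.44-fold lower, 1.30 to 1.60). Cdc25c and Cdc25b, phosphatases that activate Cdk1, had 164 and 101 counts (1.43-fold lower, 1.11 to 1.85) and 1113 and 718 counts (1.36-fold lower, 1.24 to 1.5).

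Of 13 genes of E2F and pocket proteins, 7 had intervals below 0 and 1 above, beside 25.8% and 23.5% of all measured genes. The median ratio of the 13 was -0.14. E2f2, an activator of S phase genes, had 194 and 101 counts and stood 1.69-fold lower (1.32 to 2.17). E2f7 was at -0.29 (-0.57 to -0.02) on the log2 scale, Tfdp2 at 0.24 (0.11 to 0.37) and E2f4 at -0.18 (-0.29 to -0.07). With scaling by total counts alone, 3 lay below 0 and 2 above, beside 3159 and 4131 of 14777 measured genes.

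Of 13 genes for ubiquitin ligases and proteins that work with them, 8 had intervals below 0 and 1 above. Over all measured genes these shares were 25.8% and 23.5%. The activator Cdc20, which directs the destruction of cyclin B, had 1111 and 687 counts (1.42-fold lower, 1.29 to 1.57), and its partner enzyme Ube2c had 1987 and 1344 (1.30-fold lower, 1.21 to 1.40). Cks2, a small subunit of Cdk complexes, had 789 and 551 counts (1.26-fold lower, 1.13 to 1.41). The core subunit gene Anapc11 went the other way, with 837 and 1104 counts and a log2 ratio of 0.58 (0.45 to 0.71).

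Of 16 checkpoint and p53 response genes, 6 had intervals below 0 and 3 above, beside 25.8% and 23.5% of all measured genes. The median ratio of the 16 was -0.07. Gadd45a, a stress gene, had 182 and 234 counts (1.46-fold higher, 1.20 to 1.78). From the same list, Eda2r (451 and 275 counts) and Zmat3 (1828 and 1184) were 1.44-fold (1.24 to 1.68) and 1.36-fold lower (1.26 to 1.46). The checkpoint kinase gene Chek1 (247 and 166) was 1.31-fold lower (1.07 to 1.60). Of 9 cyclins without a digit in the symbol and kinase partners, 8 were measured. Cables2 had 507 and 540 counts and stood 1.21-fold higher (1.07 to 1.37), and Ccnf, the F-box cyclin of G2, had 576 and 422 counts and stood 1.20-fold lower (1.06 to 1.37). The log2 ratio of Ccnc, the cyclin of Cdk8 and Cdk19, was 0.18 (0.01 to 0.35), an interval that held 0 with DESeq2 scaling, and that of Cables1 was 0.49 with an interval that held 0 (-0.09 to 1.11).

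**Figure D5:**
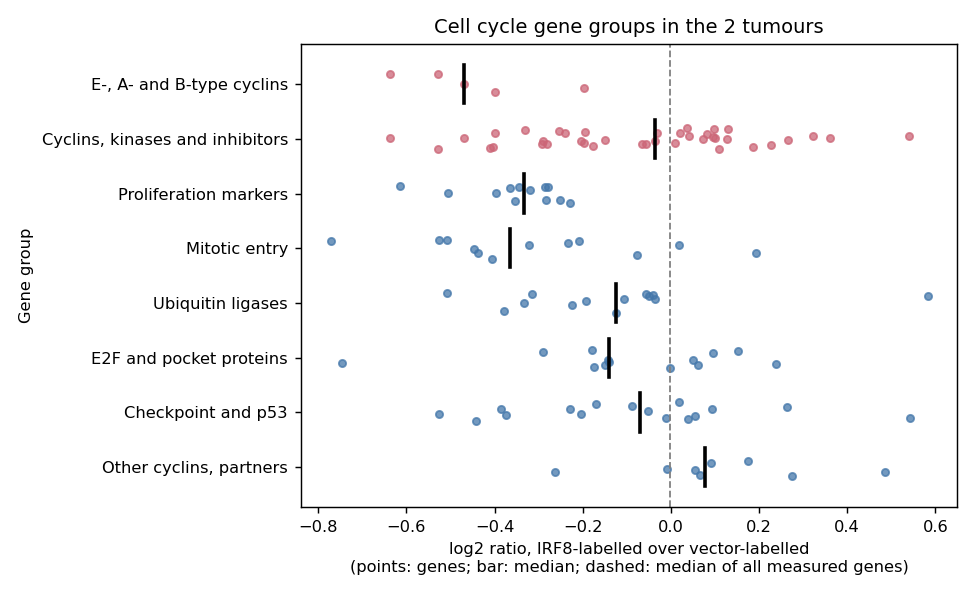
Log2 ratio of each measured gene (points, IRF8-labelled over vector-labelled, no units) in 2 groups of members (red) and 6 lists of other cell cycle genes (blue), with medians as bars and the median of all measured genes dashed. E-, A- and B-type cyclins (median -0.47), mitotic entry genes (-0.36) and proliferation markers (-0.33) lie furthest to the left, and other cyclins and partners have a median of 0.08.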

How the data were processed

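Each library started from 3 μg of RNA and a NEBNext Ultra kit, according to the labels. As this kit does not mark strand, overlapping genes on opposite strands cannot be separated. The authors deposited raw counts per gene, for which the submitters' processing notes list featureCounts 1.5.0-p3, HISAT2 2.0.5 and mm10. Gene length in bases and coordinates are columns of the deposited table, and the coordinates equalled those of GENCODE M21 for all 52 members.

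Scaling of these counts used TMM in edgeR 4.0.16 (R 4.3.3), and log2 ratios a prior count of 2. Folds and CPM use no prior count, and FPKM divides CPM by the deposited length. A gene was measured if its mean CPM over both libraries reached 1. Each counting interval is a Clopper-Pearson interval (95%) for the split of a gene's counts between the libraries, and quotients of 2 genes have exact conditional intervals. All cover counting error only, and reads without molecular identifiers are not independent molecules. A call needed 1.5-fold and an interval off 0. With 1 library per group, no p-value was computed.

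Members and lists were chosen with earlier results of these data known. Every member could be named. Beside them, up to 4 genes of each list with the largest ratios in size were named, with Irf8, Alb and Afp fixed by name, while overlapping genes and pseudogenes appear as limits. One gene that the symbol pattern would include is not reported here. Scripts were tested on simulated data. Alternatives were other scalings (DESeq2 1.42.0, total counts), filters, prior counts, folds, exact symbols and a thinned library.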

Additional observations from a re-analysis of the deposited data

How the results depend on the processing

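No paired analysis was possible because each group has 1 library. The count of members at least 1.5-fold lower was 1 with every setting tried except a 2-fold limit, where it was 0. The 2-fold limit gave 410 lower and 383 higher genes among all measured, and a mean of at least 5 CPM gave 456 and 478. With the 2-fold limit the lower counts of E2F genes, mitotic entry genes and proliferation markers were 0, and that of proliferation markers was also 0 with total counts. A single ubiquitin ligase gene was higher with total counts, where 1153 of all measured genes were. A single checkpoint gene was higher with the vector-labelled library thinned, where 991 of all measured genes were. The median of the partner proteins was 0.050 at a mean of at least 5 CPM. Signs were kept for 45 of 47 members with DESeq2 factors and with total counts, for 44 with the thinned library, and for all 47 with a prior count of 0.5 or without filtering. TMM without marker list genes, added after seeing the data, also kept all 47. Over the members without partner proteins, the median was -0.035 with TMM, 0.0044 with total counts and -0.057 with DESeq2 factors. The median of all measured genes moved as well, at -0.0012, 0.039 and -0.023 with the same scalings. For the scarcer members the counting intervals were wide, as for Cdkn3 with 141 and 101 counts (-0.68 to 0.08). That of Cdk14, with 154 and 102 counts, ran from -0.79 to -0.04. Small differences in such genes could not be told from 0 at this depth. The spread between tumours of the same kind was not measured.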
